A study of Mus musculus with 6 samples.

Results

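The genes described here encode the T cell receptor (TCR) complex and the first enzymes and scaffold that act beneath it. The 10 genes were Trac, Trbc1 and Trbc2 (the constant parts of the α and β chains), Cd3d, Cd3e, Cd3g and Cd247 (the CD3 δ, ε, γ and ζ chains), Lck and Zap70 (tyrosine kinases) and Lat (an adaptor). They were chosen by gene symbol from the 32285 features of the deposited tables, and all 10 were present in every table. They were counted in T cells sorted from kidneys of male wild type C57BL/6J mice 7 to 8 weeks old, which were either controls or had both renal pedicles clamped for 30 min (ischemia reperfusion, IR), with serum creatinine taken at baseline and at 24 h. CD45+ cells that bound the TCRβ antibody H57-597 were sorted by CD4 and CD8 into 3 subsets, the last of which, the double negative (DN) T cells, lacked both coreceptors. Each of the 6 combinations was 1 droplet library that counts unique molecular identifiers (UMIs) near the 3′ end of each RNA. How many mice went into a library is not stated in the sources read.

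The α and β chains of a T cell recognize antigen but have almost no signaling part of their own. They leave the cell interior to the CD3 chains and the ζ chain, whose immunoreceptor tyrosine based activation motifs (ITAMs) are phosphorylated by Lck and then bind Zap70. Zap70 in turn phosphorylates Lat, a membrane scaffold that gathers the next enzymes of the pathway. DN T cells of the kidney carry an αβ receptor without CD4 or CD8, the coreceptors that bring Lck to the receptor in conventional T cells.

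After filtering, 48277 of 54039 barcodes were kept, from 4141 in the IR DN library to 10212 in the IR CD4 library. The median was 6627 to 8361 UMIs per cell in the control libraries and 1451 to 2351 in the IR libraries, and within a condition 570 kept barcodes occurred in more than 1 library. The sort could be seen in the coreceptor genes: Cd4 reached 210.4 and 145 counts per 1000000 UMIs (CPM) in the control and IR CD4 libraries, and Cd8b1 reached 1370.2 and 1073 CPM in the CD8 libraries against 1.33 to 6.21 CPM elsewhere. Markers of other cells were present at low summed levels, at 32.4 to 67.1 CPM in control and 53.5 to 176 CPM in IR libraries for 12 myeloid genes. The other lists were at 3.58 to 14.5 and 20.5 to 48.3 CPM for 6 B cell genes, 1.16 to 1.28 and 19.9 to 27.6 CPM for 4 hemoglobin genes, 0.510 to 2.63 and 5.70 to 13.7 CPM for 4 endothelial genes and 3.42 to 5.99 and 3.95 to 10.9 CPM for 7 tubule genes. Leaving out the 177 kept barcodes that held 3 or more myeloid or B cell genes changed no count of members given below. The 4 NK cell genes listed summed to 451 and 375 CPM in the control and IR DN libraries against 65.2 to 99.7 CPM elsewhere. The 2 invariant NKT genes Zbtb16 and Trav11 summed to 79.3 to 262 CPM in CD4 and DN against 2.11 and 2.13 CPM in CD8 libraries. The 2 γδ T cell genes found, Trdc and Trdv4, summed to 1.99 to 5.75 CPM, and this sum holds no γ chain gene. With 1 library per group no comparison was tested. The 95% intervals are exact, by Poisson counts for levels and their ratios and by the Clopper-Pearson method for shares of cells, and they cover counting error only. A gene is said to be 2-fold apart where it differed at least 2-fold with 10 CPM or more in the higher library.

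Trbc1 and Trbc2 are neighboring copies on chromosome 6, and a β chain gene that has rearranged with a Trbj1 or a Trbj2 segment is usually joined to the Trbc1 or the Trbc2 constant region. Trbc1 (ENSMUSG00000076490) lies at chr6:41538218-41539881 and Trbc2 (ENSMUSG00000076498) at chr6:41546730-41548352, both on the plus strand of GRCm38. Their first exons are 375 bases long and differ at 1 base, C260A, counted from 1 at the 5′ end of exon 1 with the Trbc1 base first. The 60 bases around it, with the differing base in capitals, show how far a read from this exon can tell the genes apart.
Trbc1 exon 1, chr6:41538447-41538506: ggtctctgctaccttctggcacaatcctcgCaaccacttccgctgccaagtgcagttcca
Trbc2 exon 1, chr6:41546959-41547018: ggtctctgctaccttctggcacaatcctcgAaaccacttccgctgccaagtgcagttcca
Exon 3 differs at 15 of 107 bases, again in capitals, and is shown because it is the longest coding stretch in which the copies can be told apart.
Trbc1 exon 3, chr6:41539229-41539335: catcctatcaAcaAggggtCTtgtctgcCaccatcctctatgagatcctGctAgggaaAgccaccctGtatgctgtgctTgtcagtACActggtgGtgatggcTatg
Trbc2 exon 3, chr6:41547772-41547878: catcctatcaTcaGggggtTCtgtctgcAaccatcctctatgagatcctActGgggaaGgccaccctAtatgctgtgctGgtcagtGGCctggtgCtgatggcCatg
Over all 518 coding bases 23 differ, so that 95.6% are identical. The untranslated 3′ parts, with the stop codon, are 219 and 174 bases long and share no run longer than 8 bases. The study's methods name default settings without spelling out how a read that matches both copies was handled, and the split between Trbc1 and Trbc2 is uncertain to that extent.

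Each of the 3 constant region genes stayed within 2-fold over the 6 libraries. Trac (chr14:54220521-54224206, plus strand), which supplies the constant region of every α chain, stood at 822 CPM in control CD4, 831 in control CD8 and 725 in control DN cells, and at 972, 826 and 780 CPM in the IR counterparts. The DN library was the lowest of the 3 in both conditions. Trbc1 stood at 850.3, 1181 and 859 CPM in the control and at 835, 852 and 621 CPM in the IR libraries, with the control CD8 library highest and the IR DN library lowest. Trbc2 stood at 1766, 2090 and 1722 CPM in the control and at 2366, 2352 and 1705 CPM in the IR libraries, and here both DN libraries were the lowest of their condition. The 95% interval of these levels reached at most 1.01% from the value in control and 3.77% in IR libraries.

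The CD3 δ, ε and γ genes lie side by side on chromosome 9, and their products pair as δε and γε in the receptor. Cd3d (chr9:44981786-44987339, plus strand) stood at 996, 1367 and 1040 CPM in the control and at 1549, 1873 and 1295 CPM in the IR libraries, here and below in the order CD4, CD8, DN. Cd3e (chr9:44998740-45009627, minus strand) stood at 600.2, 751 and 818 CPM in the control and at 784, 1079 and 835 CPM in the IR libraries. CD8 cells were highest for Cd3d in both conditions, while for Cd3e they were highest only among the IR libraries and DN cells were highest among the controls. Cd3g (chr9:44969572-44980431, minus strand) stood at 1287, 1534 and 1380 CPM in the control and at 1478, 1431 and 1395 CPM in the IR libraries, and the order of the 3 subsets was not the same in both conditions. Cd3e overlaps Gm48719, annotated on the opposite strand, and whether the counting used strand is not spelled out beyond default settings. Summed over the 3 genes, the level was 2882, 3652 and 3238 CPM in control and 3811, 4383 and 3526 CPM in IR cells.

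Cd247, which encodes the ζ chain with the most ITAMs of any chain in the complex, showed the widest range among the members as a fold, though not in CPM. It stood at 508 CPM in control CD4 cells (95% interval 502 to 514), 436 in control CD8 and 276 in control DN cells. After IR it stood at 295 CPM in CD4, 234 in CD8 and 119 in DN cells (109 to 130, from 538 UMIs). CD4 cells were highest and DN cells lowest in both conditions, and each IR library lay below the control library of the same subset. The gene (chr1:165788681-165877277, plus strand) has 83268 intronic bases, the most among the members, and overlaps Gm16565 on its own strand and Gm37469 and Pou2f1 on the other.

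Lck and Zap70, the kinases, were lower in each IR library than in each control library. Lck, which phosphorylates the ITAMs, stood at 639.5, 763 and 609 CPM in the control and at 386, 421 and 365 CPM in the IR libraries. Zap70, the kinase that docks on phosphorylated ITAMs, stood at 181, 149 and 210.3 CPM in the control and at 117, 88.0 and 141 CPM in the IR libraries, and in both conditions the DN library was highest and the CD8 library lowest. Lat, the scaffold, stood at 357, 450.4 and 258 CPM in the control and at 585, 576 and 309.6 CPM in the IR libraries, with the DN library lowest in both. The IR DN level of Lat remained below the control CD4 and CD8 levels. The genes lie at chr4:129548344-129573641 (Lck, minus strand), chr1:36761798-36782818 (Zap70, plus strand) and chr7:126363824-126369570 (Lat, minus strand). Over all 10 members the 95% interval reached at most 2.41% from the value in control and 8.82% in IR libraries.

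**Figure D1:**
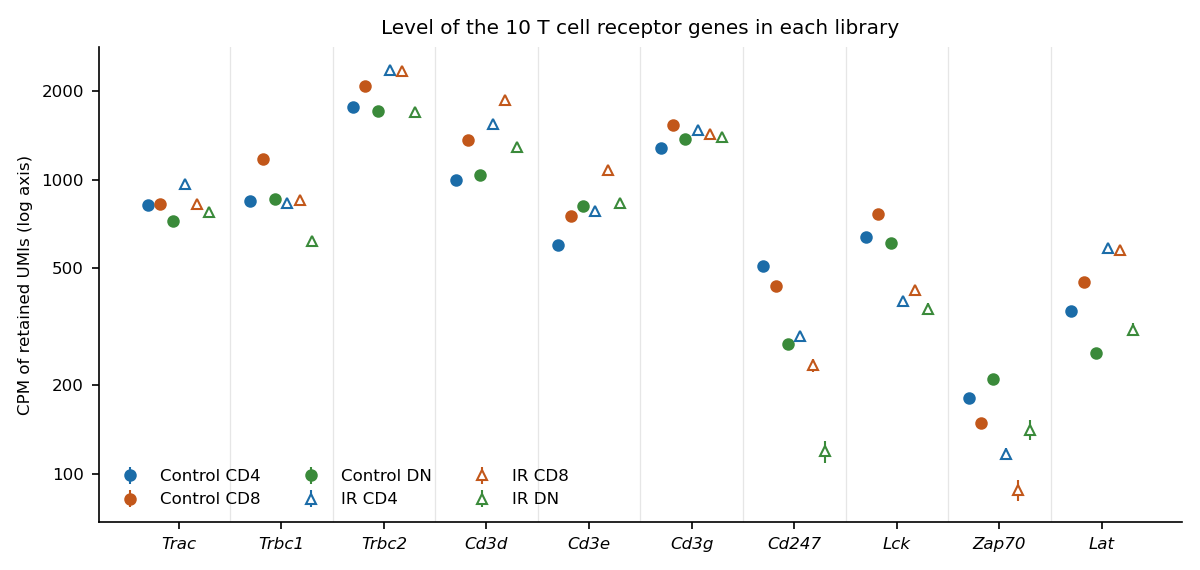
Level of each of the 10 genes in CPM (log axis) in the 6 libraries, with filled circles for control and open triangles for IR libraries and 95% Poisson intervals as bars. Cd247 runs from 508 CPM in control CD4 cells to 119 CPM in IR DN cells, while Cd3g stays between 1287 and 1534 CPM.

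DN T cells were compared with the conventional subsets to see whether the receptor machinery differed in cells that lack a coreceptor. In control kidneys the members were within 2-fold between DN and CD4 cells, with 0 of 10 past the 2-fold rule beside 2.75% of all 8862 genes compared. The widest difference was that of Cd247, with a log2 ratio of −0.88 (−0.91 to −0.85), followed by Lat at −0.47 and Cd3e at 0.45. The median over the members was −0.01 and over all genes −0.00, and 5 of the 10 members were higher in DN cells. With TMM scaling 4 were higher, and with cells thinned to 1000 UMIs 6 were, at a member median of 0.06. Against control CD8 cells 0 of 10 members were 2-fold apart, with 6.61% of all genes past the rule, and the member median of −0.30 lay below the all-gene median of −0.02. Lat was lower by a log2 ratio of −0.80 and Cd247 by −0.66 (−0.69 to −0.63), and only Zap70 (0.50) and Cd3e (0.12) were higher in DN than in CD8 cells.

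After IR, 1 of 10 members, Cd247, was 2-fold apart between DN and CD4 cells, where 8.09% of all genes were. Its level in DN cells was 2.48-fold lower, with a log2 ratio of −1.31 (−1.44 to −1.18). Lat was lower at −0.92 and Trbc2 and Trbc1 at −0.47 and −0.43, whereas Zap70 (0.26) and Cd3e (0.09, or −0.05 with TMM scaling) were the members higher in DN cells, joined by Cd3g and Lck (both 0.09) with ribosomal, mitochondrial and Malat1 UMIs in the totals. With TMM scaling Lat was 2-fold apart as well, beside 7.42% of all genes. Against IR CD8 cells, 0 of 10 members were 2-fold apart with 11.1% of all genes past the rule, but Cd247 came close at 1.96-fold, with an interval of its log2 ratio of −1.12 to −0.83 around −0.97 that holds the 2-fold value. This count changed in 5 of 12 alternatives. It was 2 with TMM scaling (Cd247 and Lat), 1 with thinned cells, with the mean over cells or centred by intronic length (Cd247) and 1 with ribosomal, mitochondrial and Malat1 UMIs in the totals (Zap70). In these 5 alternatives 10.6 to 15.1% of all genes were 2-fold apart. Zap70 was again the exception at 0.68, and the member median was −0.41 beside 0.11 over all genes, or −0.07 beside 0.45 with ribosomal, mitochondrial and Malat1 UMIs kept in the totals. With those totals Trac (0.26), Cd3g (0.30) and Lck (0.13) were also higher in DN cells. In all DN comparisons the signs of Cd247, Lat and Zap70 held under each alternative processing that was run, and the 2 DN comparisons of a condition share their DN library. NK cell genes were 375 to 451 CPM in the DN libraries and 65.2 to 99.7 CPM in the others, and their part in these differences was not tested.

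Between CD8 and CD4 cells of controls 0 of 10 members were 2-fold apart beside 4.38% of all genes, and 8 of 10 were higher in CD8 cells, among them Trbc1 (0.47), Cd3d (0.46) and Lat (0.33), while that of Trac (0.02) turned with the scaling, with a member median of 0.25 beside 0.03 over all genes. Zap70 (−0.28) and Cd247 (−0.22) were the 2 members lower in CD8 cells. After IR 0 of 10 members were 2-fold apart beside 7.81% of all genes, and 4 of 10 were higher in CD8 cells, or 7 centred by intronic length and 2 with ribosomal, mitochondrial and Malat1 UMIs in the totals. Cd3e (0.46) and Cd3d (0.27) led on the side of CD8 cells, and Zap70 (−0.41) and Cd247 (−0.33) on the side of CD4 cells.

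**Figure D2:**
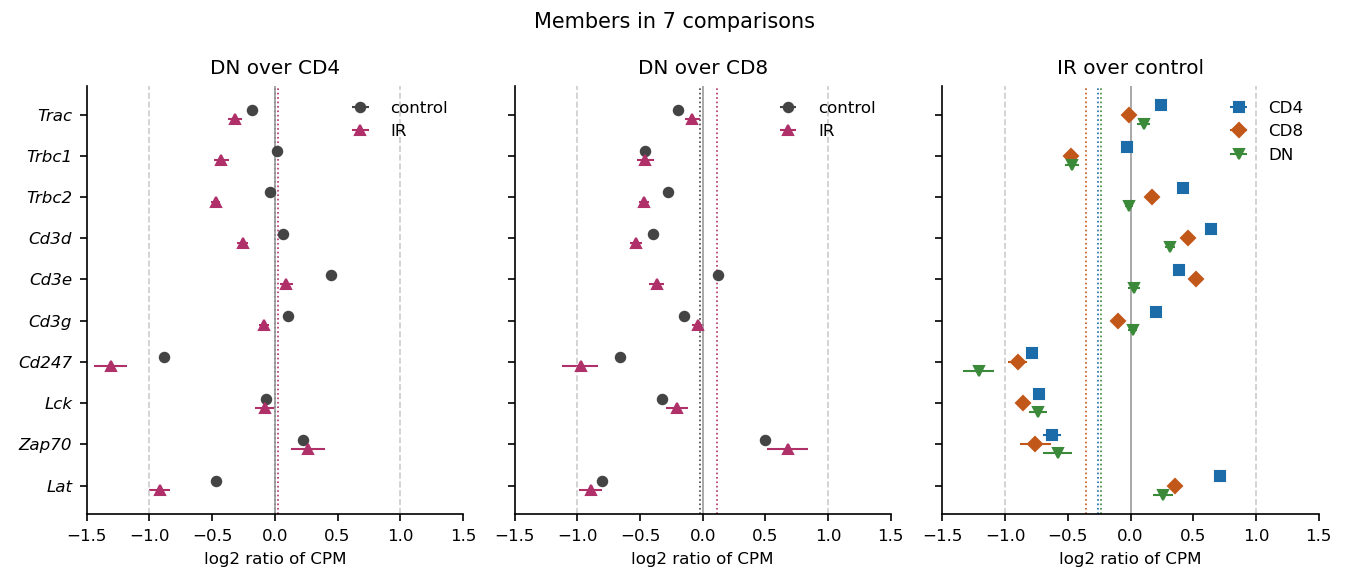
Log2 ratio of each member for DN over CD4, DN over CD8 and IR over control, 7 comparisons in all, with 95% intervals as bars, dashed lines at 2-fold and dotted lines at the median of all genes compared. Cd247 lies past the 2-fold line at −1.31 for IR DN over CD4 and at −1.21 for IR over control in DN cells, and the other members lie within it.

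The IR and control libraries were compared within each subset. In CD4 cells 0 of 10 members were 2-fold apart although 22.7% of all genes were, or 13.6% centred by intronic length with the same count of members. Lat (0.71), Cd3d (0.64), Trbc2 (0.42, or −0.01 centred by intronic length) and Cd3e (0.39) were higher after IR, and Cd247 (−0.78), Lck (−0.73) and Zap70 (−0.62) were lower. In CD8 cells 0 of 10 members were 2-fold apart beside 25.4% of all genes, or 16.8% centred by intronic length with the same count of members. Cd3e (0.52), Cd3d (0.45) and Lat (0.35, or −0.06 with ribosomal, mitochondrial and Malat1 UMIs in the totals) were higher, and Cd247 (−0.90), Lck (−0.86), Zap70 (−0.76) and Trbc1 (−0.47) were lower. In DN cells 1 of 10 members, Cd247, was 2-fold apart beside 19.7% of all genes. Its IR level was 2.31-fold lower, with a log2 ratio of −1.21 (−1.34 to −1.09), and Lck (−0.74), Zap70 (−0.58) and Trbc1 (−0.47) were lower as well, while Cd3d (0.32) and Lat (0.26) were higher. The member medians of 0.22, −0.05 and 0.00 in CD4, CD8 and DN cells stood beside all-gene medians of −0.26, −0.36 and −0.23. Centred by intronic length, the member medians were −0.01, −0.04 and −0.19 beside all-gene medians of 0.

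Condition cannot be told apart from the software release that the file headers name (Cell Ranger 5.0.1 for control and 6.0.1 for IR libraries) or from the lower depth per cell, and ribosomal protein genes took 16.5 to 22.7% of UMIs in control and 27.1 to 42.7% in IR libraries. The IR to control ratio of all genes also fell along intronic length, from a median of 0.46, 0.17 and 0.31 in the 10% of genes with the least intronic sequence to −0.97, −0.79 and −0.60 in the 10% with the most, in CD4, CD8 and DN cells. The 3 members with the lowest IR to control ratio in each subset (Cd247, Lck and Zap70) have 83268, 22369 and 18029 intronic bases, and the other 7 have 915 to 7591. With each ratio centred on genes of like intronic length, Cd247 was at −0.01, −0.26 and −0.65 in CD4, CD8 and DN cells. Cd247 was then no longer 2-fold apart in DN cells, where 14.7% of all genes were. Trbc1, with 915 intronic bases, was at −0.45, −0.64 and −0.76, the lowest of the members in CD8 and DN cells. Lck moved to between −0.46 and −0.45, from −0.86 to −0.73 without centring, in the same calculation. Zap70 moved to between −0.43 and −0.34, from −0.76 to −0.58. With ribosomal, mitochondrial and Malat1 UMIs kept in the totals, the all-gene medians moved to −0.62, −0.79 and −0.41 in CD4, CD8 and DN cells and the member medians to −0.13, −0.47 and −0.17. In that setting 2 members in CD4 cells (Cd247, Lck) and 3 in CD8 cells (with Zap70) were then 2-fold apart, where 34.2 and 42.3% of all genes were.

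Shares of cells with at least 1 UMI were taken after reducing each cell to 1000 UMIs and leaving out shallower cells. This made total UMIs equal but not those outside the ribosomal, mitochondrial and Malat1 features, of which a reduced cell kept a mean of 744 to 799 in control and 553 to 698 in IR libraries. Any of Cd3d, Cd3e and Cd3g was then found in 85.5, 90.5 and 90.4% of control and in 86.1, 85.3 and 85.3% of IR cells (97.3, 98.2 and 99.1% and 95.6, 93.7 and 90.1% at full depth). Trbc1 or Trbc2 was found in 79.1, 86.4 and 80.8% and in 77.3, 75.6 and 71.6%. With each cell reduced to 500 UMIs outside those features, an alternative added after seeing the data, a Cd3 UMI was found in 71.4, 81.5 and 78.1% of control and in 80.4, 83.8 and 76.9% of IR cells. Trbc1 or Trbc2 was found in 65.2, 76.2 and 67.3% and in 71.0, 73.2 and 61.1%. The IR shares thus lay above the control shares for the Cd3 genes in CD4 and CD8 cells and for Trbc1 or Trbc2 in CD4 cells under that alternative. A cell reduced to 1000 UMIs held a median of 4 different members in each control library and in IR CD4 cells and 3 in the other IR libraries, and 0.229 to 0.873% of control and 2.26 to 3.87% of IR cells held none.

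The order of the subsets in these shares followed the levels for Cd247, Zap70 and Lat, the genes that set DN cells apart. Cd247 was found in 31.9, 26.5 and 19.1% of control and in 15.9, 11.7 and 7.58% of IR cells at 1000 UMIs (80.6, 72.0 and 75.6% and 33.4, 20.3 and 11.5% at full depth). Zap70 was found in 10.6 (CD8) to 15.0% (DN) of control cells and in 7.01, 4.55 and 9.28% of IR cells. Lat was found in 23.0, 28.2 and 18.1% and in 29.9, 27.2 and 19.4%, and Lck in 37.9 to 43.2% of control cells and in 20.3% of IR CD8 and 20.8% of IR CD4 cells. At 500 UMIs outside the removed features Cd247 was found in 22.1, 18.6 and 12.7% of control and in 13.4, 10.9 and 5.50% of IR cells, so that the order of subsets held and each IR share lay below its control. The barcodes with myeloid or B cell markers were no clean background, because 68.6% of the 175 with 1000 UMIs or more held a Cd3 UMI after reduction to 1000. In these barcodes, at the same 1000 UMIs, Cd247 was found in 20.6% (14.8 to 27.3), Zap70 in 6.86% (3.59 to 11.7) and Lat in 18.9% (13.4 to 25.5), with an interval of 14.3 to 26.7% for Lck, at a median of 3811 UMIs before the reduction. The shares of Cd247 in control CD8, control DN and the IR libraries, of Zap70 in control CD8 and the IR libraries, of Lat in control CD4, control DN and IR DN and of Lck in the IR libraries lay within or below these intervals and are not read as expression above them.

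Each β chain uses a single constant region, and the per-cell counts were used to see how often Trbc1 and Trbc2 were found in the same cell. Trbc1 made up 32.5, 36.1 and 33.3% of the UMIs of both genes in control and 26.1, 26.6 and 26.7% in IR cells. In cells with 4 or more UMIs of the pair, from 1157 IR DN cells to 8364 control DN cells, both genes were found in 65.4% (64.3 to 66.4), 69.0% (67.9 to 70.0) and 62.4% (61.3 to 63.4) of control and in 55.1% (53.8 to 56.4), 56.2% (54.2 to 58.2) and 52.4% (49.5 to 55.3) of IR cells. A single UMI of the rarer gene counted here, and with 2 UMIs of it asked for the shares were 50.1, 56.2 and 51.6% in control and 35.1, 31.4 and 28.3% in IR cells. The barcodes with myeloid or B cell markers held Trbc1 or Trbc2 in 63.4% at 1000 UMIs and give no clean background, and the part of free RNA in the shares with both genes was not tested. In the kept cells with 4 or more UMIs of the pair, its median count was 14 to 16 UMIs in control and 5 to 6 in IR libraries.

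Reduced to 4 UMIs of the pair in every cell, the share with both was 44.1, 49.1 and 41.9% in control and 45.0, 48.7 and 46.6% in IR cells, so that the condition ranges overlapped and CD8 cells were highest in both. Pairs of genes whose products are made together were reduced in the same way for reference. Cd3d and Cd3g were found together in 83.1 to 85.3% of cells, Cd3d and Cd3e in 75.5 to 84.6%, and Lck and Lat in 72.2 to 82.2%, the last from only 64 cells in the IR DN library. The share for Trbc1 and Trbc2 was below that of each of these 3 pairs in every library. The pairs also differed in balance, which enters such a share, since Trbc1 made up 26.1 to 36.1% of its pair, Cd3g 43.3 to 57.0% of Cd3d and Cd3g, and Cd3d 56.0 to 66.4% of Cd3d and Cd3e. Lat made up 29.8 to 37.1% of Lck and Lat in control and 45.9 to 60.3% in IR libraries. In the control DN library, where Lat was 29.8% and Trbc1 33.3% of the pair, both genes were found in 72.2 and 41.9% of cells. The part of balance in the lower share of Trbc1 with Trbc2 was not tested.

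**Figure D3:**
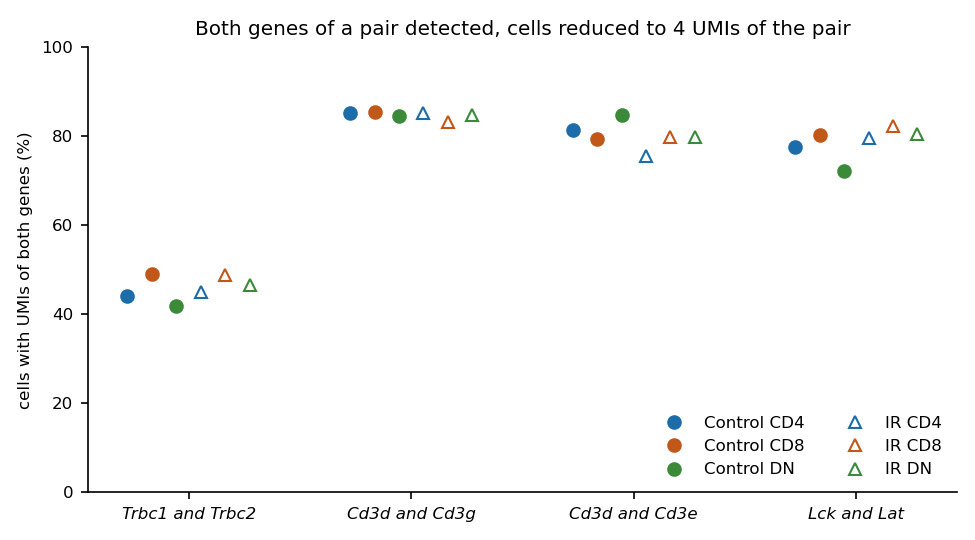
Percent of cells in which both genes of a pair were found after reduction to 4 UMIs of the pair, with filled circles for the 3 control and open triangles for the 3 IR libraries. Trbc1 with Trbc2 lies between 41.9 and 49.1% and the 3 reference pairs between 72.2 and 85.3%.

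The exclusive cells were almost all on the side of Trbc2. Among cells with 8 or more UMIs of the pair, 29.1, 28.2 and 32.7% of control cells and 32.5, 32.6 and 32.1% of IR cells had Trbc2 UMIs alone. Trbc1 UMIs alone were found in 0.848, 0.669 and 0.542% of control and in 1.02, 1.19 and 0.629% of IR cells. At the same minimum each gene made up 20% or more of the pair in 42.7, 47.4 and 42.2% of control and in 47.2, 48.1 and 55.3% of IR cells. The per-cell share of Trbc1 was spread in 2 heaps: 40.2, 36.7 and 42.2% of control cells lay at 0 to 10%, only 4.90, 5.96 and 4.98% at 30 to 40%, and 9.28, 9.96 and 9.16% at 50 to 60%. At 90 to 100% there were 2.57, 2.51 and 2.33%, so that the upper heap lay around the middle of the scale and not at its end.

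**Figure D4:**
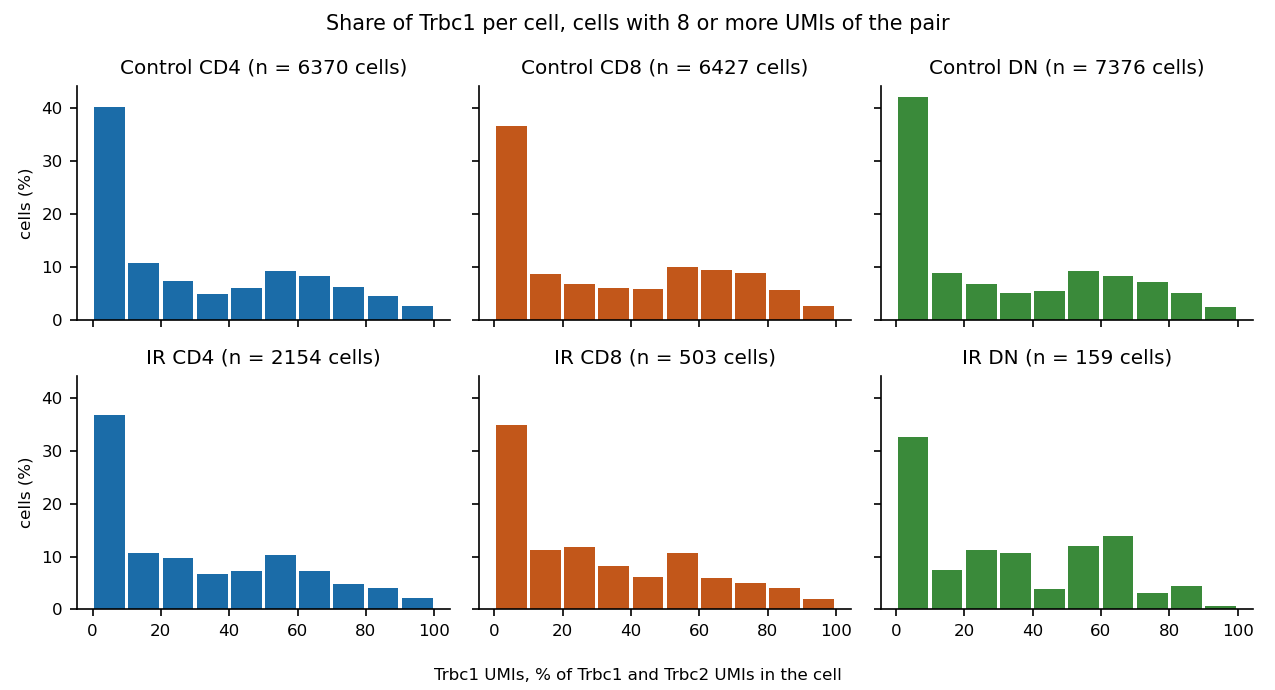
Percent of cells by the share of Trbc1 among the Trbc1 and Trbc2 UMIs of a cell, in cells with 8 or more UMIs of the pair, for the 6 libraries. In control libraries 36.7 to 42.2% of cells lie in the lowest bin, 4.90 to 5.96% at 30 to 40% and 9.16 to 9.96% at 50 to 60%.

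The share was also taken by the UMIs of a barcode. In the 5% of barcodes with the most UMIs, which were left out of the other results because pairs of cells can share a droplet, both genes were found in 44.3 to 57.0% after reduction to 4 UMIs, above the kept cells in 5 of 6 libraries and below them in IR CD8 cells (44.3 against 48.7%). The 10% of control CD8 cells with the fewest UMIs stood apart at 77.8% (238 cells, median 946 UMIs), where the same 10% of cells in the other libraries was at 39.6 to 50.4%.

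The J segments of the β chain were compared with the Trbc1 share, since they are counted from reads other than those of Trbc1 and Trbc2. The 7 Trbj1 segments lie next to Trbc1 and the 7 Trbj2 segments next to Trbc2. This comparison was chosen after the per-cell shares of Trbc1 had been seen. In control cells with 8 or more UMIs of the pair, a Trbj1 UMI was found in 0.362% (0.227 to 0.547) of the 6081 cells without Trbc1, in 1.80% of the 5160 cells with up to 30% Trbc1, in 3.39% (2.99 to 3.82) of the 7414 cells with 30 to 80%, and in 3.36% (2.51 to 4.39) of the 1518 cells with 80% or more. Trbj2 UMIs ran the other way, at 8.39% (7.70 to 9.11), 7.81%, 6.04% and 5.53% (4.44 to 6.81) of the same cells. Cells with a middle share of Trbc1 thus held Trbj1 as often as cells with almost only Trbc1, within the intervals. Trbj1 made up 3.64, 18.5, 35.3 and 38.2% of the J UMIs in the 4 classes. Even at 80% or more Trbc1, Trbj2 was found more often than Trbj1 (5.53 against 3.36% of cells). A J UMI is therefore not read as the constant region in use. In IR cells a Trbj1 UMI was found in 0.219, 1.37, 1.68 and 0.578% and a Trbj2 UMI in 1.42, 1.07 and 1.21% of the first 3 classes and in 0 of 173 cells of the last, which allows a share of up to 1.73% by the limit of 3 counts and of 2.11% by the 95% interval.

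Seen from the J segment, in cells with 4 or more UMIs of the pair, Trbc1 was found in 93.7% (90.9 to 95.9) of the 414 control cells with Trbj1 UMIs alone and made up 51.6% of their pair UMIs. In the 1557 cells with Trbj2 UMIs alone Trbc1 was still found in 62.0% (59.6 to 64.5) and made up 27.9%, below the 66.7% (66.1 to 67.3) and 34.0% of the 21926 cells with no J UMI. The median count of the pair in cells with Trbj1, Trbj2 and no J UMI was 23, 18 and 15 UMIs. Reduced to 4 UMIs of the pair, both constant genes were found in 67.0, 39.7 and 44.9% of these cells. In IR libraries the counts were small, with Trbc1 in 89.1% of 64 cells with Trbj1 alone, where it made up 40.6% of the pair UMIs, in 47.1% of 87 cells with Trbj2 alone and in 57.5% of 9019 cells with neither. Whether the J segment UMIs came from RNA of a working β chain was not tested.

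**Figure D5:**
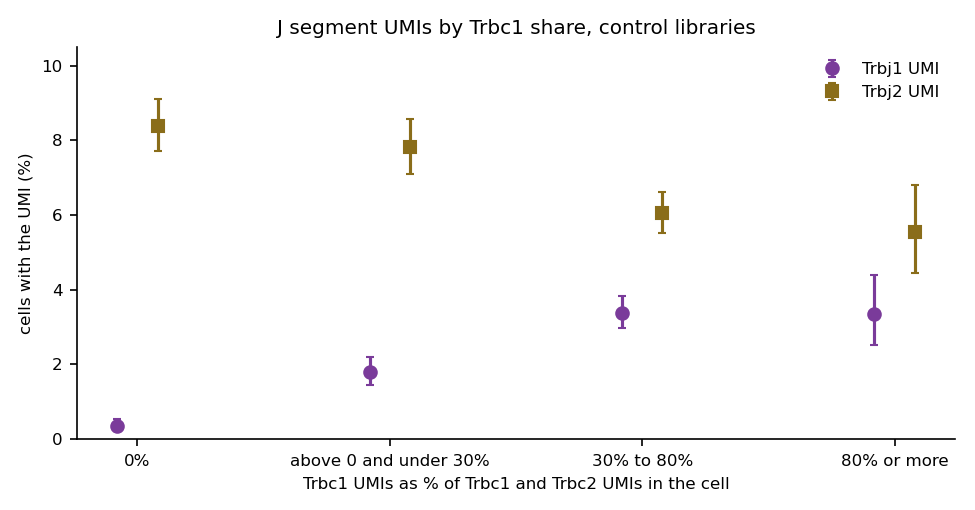
Percent of cells with a Trbj1 or a Trbj2 UMI in 4 classes of the Trbc1 share, for the cells of the 3 control libraries with 8 or more UMIs of the pair, with 95% Clopper-Pearson intervals as bars. Trbj1 runs from 0.362% without Trbc1 to 3.36% at 80% or more, and Trbj2 from 8.39 to 5.53%.

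Fcer1g, the Fc receptor γ chain, is an ITAM chain that can take the place of the ζ chain and is also expressed by myeloid and NK cells. Its level was 193 CPM in control DN cells against 13.8 and 13.6 CPM in CD4 and CD8 cells, and 292 CPM in IR DN cells against 26.2 and 26.9 CPM, which gave log2 ratios of 3.81 and 3.83 in control and 3.47 and 3.44 after IR. It was found in 37.7% of the barcodes with myeloid or B cell markers, against 10.1% of control and 11.3% of IR DN cells at 1000 UMIs. The NK genes were at 451 and 375 CPM in the DN libraries, and their part in this difference was not tested. DN cells were divided by whether they held an Fcer1g UMI, a division in which cells without one may still express the gene. Cd247 stood at 290.0 CPM in the 2191 control DN cells with Fcer1g and at 271 CPM in the 6722 without, and at 124 and 118 CPM in the 586 and 3555 IR cells. Lat was lower in the control cells with Fcer1g, at 206 against 276 CPM (log2 ratio −0.42), and stood at 271 against 317 CPM after IR. The cells with Fcer1g had a higher median count, at 8781 against 8266 UMIs in control and 1631 against 1427 in IR DN cells. In the IR DN library Trbc2 stood at 2234 against 1610 CPM and Cd3d at 1568 against 1246 CPM in cells with and without Fcer1g.

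Among 43 further genes of TCR signaling that could be compared (coreceptors left out), between 2 and 9 differed 2-fold among subsets within a condition. For DN over CD4, DN over CD8 and CD8 over CD4 these were 6, 8 and 2 genes in control, beside 2.75, 6.61 and 4.38% of all genes, and 4, 9 and 3 genes after IR, beside 8.09, 11.1 and 7.81%. In DN against CD4 control cells 2 were higher, Fcer1g and Txk (1.02), a Tec family kinase, and 4 were lower, the inhibitory receptor Cd5 (−1.74), the adaptor Trat1 (−1.24), Themis (−1.02), which tunes receptor signals in the thymus, and Cd6 (−1.01). Against CD8 control cells 3 were higher and 5 lower, led after Fcer1g by Themis (−1.46), Txk (1.37), the phosphatase gene Ptpn6 (−1.24), Cd5 (−1.16) and the adaptor Grap2 (−1.15). Cd5 was lowest in DN cells in both conditions, at 292, 195 and 87.5 CPM in control and 151, 75.4 and 43.2 CPM after IR. After IR, 1 gene was higher and 3 lower in DN than in CD4 cells (Fcer1g, and Cd5 at −1.80, the diacylglycerol kinase gene Dgka at −1.27 and Trat1 at −1.22), and 5 were higher and 4 lower than in CD8 cells, led after Fcer1g by Dok2 (1.51), Grap2 (−1.35), Dgka (−1.28), Themis (−1.19) and Pag1 (1.14). Between CD8 and CD4 cells Ptpn6 was higher (1.03) and Trat1 lower (−1.10) in controls, and Trat1 (−2.09), Dok2 (−1.08) and Dok1 (−1.03) were lower after IR.

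Between conditions the same list was mostly lower after IR. In CD4 cells 1 gene was 2-fold higher and 14 lower, in CD8 cells 1 and 18, and in DN cells 0 and 12, beside 14.7, 16.6 and 10.1% of all genes that were 2-fold lower and 8.04, 8.80 and 9.57% that were 2-fold higher. These came with list medians of −0.62, −0.88 and −0.56 beside the all-gene medians of −0.26, −0.36 and −0.23. Centred by intronic length, 456 of 9070, 520 of 9218 and 389 of 9341 genes compared were 2-fold lower, and 781, 1032 and 984 were higher. The list was not centred in this way. Themis had the widest log2 ratio in CD4 (−1.92) and DN cells (−1.64) and was second in CD8 cells (−1.91), where Tespa1 led (−2.08). Tespa1 was at −1.61 in CD4 and −1.49 in DN cells, while Pag1, which holds the Lck inhibitor Csk at the membrane, at −1.56 in CD4 and −1.65 in CD8 cells. The adaptor Skap1 was at −1.55 in CD4 and −1.48 in DN cells and Rasgrp1, which activates Ras below Lat, at −1.39 and −1.45. Trat1 and Ubash3a were at −1.66 and −1.57 in CD8 and Ubash3b at −1.63 in DN cells. The same limits of software release, depth and intronic length apply to these ratios as to those of the members.

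The pattern over the 6 libraries was compared between each member and 2938 other genes at 50 CPM or more in every library, by the distance of log2 CPM after centring each gene. Among the receptor genes, Ube2b, Esd and Paip2 were nearest to Trac (0.08 to 0.12), Anp32b, Tuba1c and Cct2 to Trbc1 (0.12 to 0.15) and Nop53, Sh3bp1 and Rab5if to Trbc2 (0.13 to 0.16). Dynll1, Mrpl58 and Myl12a were nearest to Cd3d (0.13 to 0.16), Serbp1, Ddx21 and Cebpz to Cd3e (0.17 to 0.21) and Psmd6, Fkbp8 and Cops2 to Cd3g (0.10). Cd247 had no close companion, its nearest genes being Arid5b, S100a4 and Smchd1 at 0.51, 0.56 and 0.59, and its nearest member Lck at 1.07. Anxa6, Hspd1 and Hnrnpr were nearest to Lck (0.11 to 0.13), Me2, Pbxip1 and Lasp1 to Zap70 (0.18 to 0.19) and Rexo2, Atp1b3 and Washc3 to Lat (0.30 to 0.31). Among the members themselves Trac and Cd3g were the nearest pair, at 0.29.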

How the data were processed

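Raw UMI counts per gene and barcode were deposited by the authors as filtered matrices made with Cell Ranger, release 5.0.1 in the control and 6.0.1 in the IR file headers, while the labels name 6.0.1 for all; the methods name default settings, without spelling out introns or strand. Barcodes with 500 or more detected features and at most 20% mitochondrial UMIs were kept, and the 5% with the most UMIs per library were left out as possible doublets. Counts were summed per library and divided by the total without 104 mitochondrial, ribosomal protein and Malat1 features (4514942 to 60812126 UMIs), as CPM. Cells were thinned to 1000 UMIs with a fixed seed. Shares at 4 UMIs of a pair, and at 500 UMIs outside the removed features, are exact expected values without a random draw.

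GENCODE M21 (GRCm38) supplied coordinates and sequences, and 32235 of the 32285 identifiers were found in it. The tools were Python 3.11.15, numpy 2.4.6, scipy 1.17.1, pandas 2.3.3, matplotlib 3.10.9, R 4.3.3 and edgeR 4.0.16 (TMM factors only, as an alternative). Scripts were tested on simulated data. All 10 members were named, with pathway genes 2-fold apart (at most 6 per comparison, by ratio) and the 3 closest genes to each member; 1 pathway gene that met this rule is not reported here. The members and lists were chosen with earlier results of these data known. Alternatives covered scaling, features in the total, cell filters, marker barcodes, thinning, weighting of cells, intronic length, minimum level and pair minimum, and leaving out barcodes found in more than 1 library of a condition and reducing cells to 500 retained UMIs were added after seeing the data.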

Additional observations from a re-analysis of the deposited data

Results flagged for a closer look

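Log2 ratios of 3 CD3 genes, 10 values in all, had opposite signs in 2 conditions or 2 subsets with both 95% counting intervals away from 0; opposite signs of other members, where an interval held 0, are not listed. With 1 library per group none of these differences was tested. Cd3g was higher after IR in CD4 cells (0.20) and lower in CD8 cells (−0.10). The DN to CD4 ratio of Cd3d was 0.063 in control and −0.26 in IR libraries, and that of Cd3g was 0.10 and −0.084. The DN to CD8 ratio of Cd3e was 0.12 in control and −0.37 in IR libraries. The CD8 to CD4 ratio of Cd3g was 0.25 in control and −0.047 in IR libraries. The values of Cd3d and Cd3e kept their signs under each alternative that was run, while some of those of Cd3g changed sign with the scaling or with centring by intronic length.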

How the results depend on the processing

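Of the 90 log2 ratios of a member in a comparison, 64 kept their sign under each alternative and 26 changed it under 1 or more, the widest of these being Trbc2 in CD4 cells after IR (0.42). Cd247 ranged from −1.45 to −1.13 for IR DN over CD4, from −1.14 to −0.63 for IR DN over CD8, and from −1.38 to −0.65 for IR over control in DN cells. The count of members 2-fold apart became 2 (Cd247 and Lat) for IR DN over CD4 and for IR DN over CD8 with TMM scaling, and 1 for IR DN over CD8 with thinned cells, with ratios centred by intronic length, and with the mean over cells (Cd247 each time), and also 1 (Zap70) with the removed features kept. With those features kept it became 2 for IR over control in CD4 and 3 in CD8 cells, beside 34.2 and 42.3% of all genes. Centred by intronic length the count became 0 for IR over control in DN cells, beside 14.7% of all genes. The share of cells with both Trbc1 and Trbc2, in control CD4, CD8, DN and IR CD4, CD8, DN order, was 44.1, 49.1, 41.9, 45.0, 48.7 and 46.6% after reduction to 4 UMIs, 62.1, 66.5, 60.8, 45.5, 42.4 and 38.4% with a minimum of 2 UMIs, 70.1, 71.1, 66.7, 66.5, 66.2 and 67.3% with 8, and 50.1, 56.2, 51.6, 35.1, 31.4 and 28.3% when the rarer gene needed 2 UMIs. Without cell filters it was 70.0, 63.4 and 56.5% in control CD8, control DN and IR CD4 cells, and with the 5% of barcodes with the most UMIs kept 63.4 and 56.5% in the last 2. The share was lower in IR than in control cells of each subset at minimums of 2 and 4 UMIs, only in CD4 and CD8 cells at 8, and only in CD8 cells after reduction to 4. In the other 118 of 156 alternatives for these results the value moved by no more than its interval or the count by no more than 1.5 times. Levels under 0.0493 to 0.664 CPM, 3 UMIs of a library, could not be told from 0. No paired analysis was possible because the groups share only 1 replicate number, with 1 library each.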
